A study of Mus musculus with 14 samples.

Results

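The transcripts described here come from 8 genes that mark the liver and the red cell lineage, measured in cultured pancreatic islets. Alb, Afp and Ahsg are the liver transcripts. Hbb-bs, Hbb-bt, Hba-a1, Hba-a2 and Alas2 are the red cell transcripts. The 8 were taken by gene name from a table of 54532 genes, of which 38028 had at least 1 count, and every member had a row. They were chosen from earlier readings of their levels in these same libraries, so their levels and their spread are given as a description, with no test.

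The islets came from C57BL/6JRj pups at postnatal day 0 (P0) and were cultured for 1 day with the solvent DMSO or with 10 µM Adjudin, an indazole-carbohydrazide first studied as a male contraceptive. Both groups shared RPMI medium with 11 mM glucose and 10% fetal bovine serum, and each had 7 libraries of poly-A RNA. According to the study's methods, islets were picked by hand and each sample pooled several pups of either sex. The DMSO and the Adjudin library that carry a replicate number belonged to 1 batch and are called a pair, and a library is named by its treatment and replicate number.

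Albumin, alpha-fetoprotein and fetuin-A (Ahsg) are secreted into plasma by hepatocytes, and Afp, a relative of Alb, is a fetal product that declines after birth. Red cells carry haemoglobin, a tetramer of alpha and beta globin chains around haem, and Alas2 is the erythroid form of the enzyme that starts haem synthesis. Mature mammalian red cells have no nucleus, but young ones still hold globin mRNA, and the liver of a newborn mouse still makes blood. The pancreas lies close to the liver and is rich in vessels.

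Of the 8 genes, 6 sit in 3 close groups on the GRCm38 assembly. Alb (chr5:90460897-90476602) ends 14.1 kb ahead of Afp (chr5:90490737-90508907), and both lie on the plus strand. Hbb-bt (chr7:103812524-103813996) and Hbb-bs (chr7:103826534-103828096) lie on the minus strand. Hba-a1 (chr11:32283511-32284465) and Hba-a2 (chr11:32296489-32297298) lie on the plus strand. Ahsg (chr16:22891277-22899449) and Alas2 (chrX:150547375-150570638) stand alone, and the positions in the deposited table matched GENCODE release M21 for all 8 members.

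The globin copies were near-identical, which bears on how far their counts can be told apart. The 426 coding bases of Hba-a1 and Hba-a2 differed at 1 position (C381T, counted from the first base of the start codon, with the Hba-a1 base first). The 441 coding bases of Hbb-bs and Hbb-bt likewise differed at 1 position (C417T, with the Hbb-bs base first). The stretches around these positions, bases 351 to 411 of the alpha and 381 to 441 of the beta coding sequence in the GENCODE transcripts, are shown with the differing base in capitals.
Hba-a1: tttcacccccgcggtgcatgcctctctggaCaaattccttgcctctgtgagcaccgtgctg
Hba-a2: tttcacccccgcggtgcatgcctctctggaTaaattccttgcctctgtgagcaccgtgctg
Hbb-bs: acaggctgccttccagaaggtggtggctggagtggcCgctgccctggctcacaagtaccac
Hbb-bt: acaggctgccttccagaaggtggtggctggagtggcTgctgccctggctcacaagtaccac

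Over the whole mature transcripts, 266 of the 405 windows of 150 bases in Hba-a2 (65.7%) occurred unchanged in Hba-a1, and 266 of the 550 windows of Hba-a1 (48.4%) occurred in Hba-a2. For the beta copies, 281 of the 479 windows of Hbb-bs (58.7%) were found in Hbb-bt, and 281 of the 554 windows of Hbb-bt (50.7%) in Hbb-bs. Reads were 150 bases long, and how reads that fit several places were counted is not given in the sources used here. The split of counts between 2 copies is therefore uncertain, and the sum over copies is the firmer value.

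The promoters of members that moved together between libraries are shown next, from the RefSeq promoter table (GRCm38.p6), with motif letters in capitals. Only bases ahead of both the RefSeq and the GENCODE transcript start were printed. Alb and Afp stand for the liver transcripts, Hba-a2 and Hbb-bt for the alpha and beta globins.
Alb promoter, chr5:90460710-90460869, plus strand: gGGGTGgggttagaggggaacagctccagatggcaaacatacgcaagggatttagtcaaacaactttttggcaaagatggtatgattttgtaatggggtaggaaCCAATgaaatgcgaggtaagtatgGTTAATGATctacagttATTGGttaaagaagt
Afp promoter, chr5:90490554-90490713, plus strand: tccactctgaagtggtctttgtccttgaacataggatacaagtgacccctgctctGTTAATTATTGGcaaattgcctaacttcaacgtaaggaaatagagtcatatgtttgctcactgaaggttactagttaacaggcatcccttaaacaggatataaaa
Hba-a2 promoter, chr11:32296329-32296488, plus strand: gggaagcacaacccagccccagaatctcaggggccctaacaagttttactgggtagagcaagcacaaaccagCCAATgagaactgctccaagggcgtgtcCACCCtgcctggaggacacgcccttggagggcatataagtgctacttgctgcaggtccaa
Hbb-bt promoter, chr7:103813997-103814156, minus strand: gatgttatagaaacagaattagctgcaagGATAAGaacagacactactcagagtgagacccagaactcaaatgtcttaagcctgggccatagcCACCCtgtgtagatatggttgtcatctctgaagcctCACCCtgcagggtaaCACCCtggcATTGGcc

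Of the letters searched on both strands, GTTAATNAT, a form of the site of the hepatocyte factor HNF1, occurred in the 250 bases ahead of the RefSeq start of Alb and Afp and of no other member. It was found in 0.737% of the 32851 mouse promoters searched over the same length. GATAAG, a form of the GATA factor site, occurred in the 4 globin promoters and in 6.55% of all promoters. CCAAT, the box bound by NF-Y, was found in 6 of the 8 members and in 33.8% of all promoters, and CACCC, a box bound by KLF factors, in 7 of 8 and in 52% of all promoters. In Afp the CCAAT match, on the reverse strand, overlapped the GTTAATNAT match. The searched window was set by the RefSeq start alone. Of its 250 bases, 0 in Ahsg, 82 in Hbb-bs and 89 in Hba-a1 lay ahead of the GENCODE start too, and 177 to 250 in the other members. The motif matches are letters in a window and not measured binding sites.

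Totals were 26475749 to 36900026 counts in 13 libraries, and DMSO 7 was deeper, at 108865228 counts. Counts were divided by the library total and scaled to a common total, the unit known as CPM, and 1 count was worth 0.00919 CPM in DMSO 7 and up to 0.0378 CPM elsewhere. Islet identity held in most libraries, with Ins2, an insulin gene, at 587 to 9958 CPM in 13 of them. In DMSO 5 the Ins2 level was 2.27 CPM and the 10 beta cell genes listed summed to 31.7 CPM, against 1333 to 18217 CPM in the others, so the islet label is not borne out by insulin transcripts there. Adjudin 5 was the next lowest in beta cell genes, at 1333 CPM, followed by DMSO 1 at 4952 CPM. Its pan-endocrine genes summed to 142 CPM, against 128 CPM in DMSO 5 and 344 to 2578 CPM in the others. Neither liver nor red cell transcripts were high in DMSO 5.

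The liver transcripts were concentrated in 1 library, Adjudin 3. Alb, Afp and Ahsg together made up 565 CPM there, or 0.0565% of all counts (exact 95% interval 0.0557 to 0.0574%), against 0.818 to 2.61 CPM in the other 13 libraries. Adjudin 3 held 96.9% of their CPM summed over all libraries. Intervals on counts cover counting error only, since reads without molecular identifiers are not independent molecules. In these bulk samples, more cells of a type and more RNA per cell cannot be told apart.

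Alb, the main plasma protein made by the liver, was at 0.0310 to 0.358 CPM in the 7 DMSO libraries, with a median of 0.0813 CPM. Among the Adjudin libraries it ranged from 0 counts in Adjudin 6, which allows up to 0.0972 CPM, through a median of 0.260 CPM, to 305 CPM in Adjudin 3. Leaving that library aside, the treatment groups overlapped and no library exceeded 39 counts of Alb. Adjudin 3 held 8605 counts, 850 times the next library, DMSO 7, in CPM (exact 95% interval 621 to 1196).

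Afp, the fetal relative of albumin, lay between 0.156 and 0.725 CPM in the DMSO libraries, with a median of 0.323 CPM. In the Adjudin libraries the lowest value was 0.324 CPM, the median 0.560 CPM and the highest 138 CPM, in Adjudin 3. The level of Adjudin 3 was 146 times that of Adjudin 7, the next library (102 to 217). The other 6 Adjudin libraries, at 0.324 to 0.948 CPM, overlapped the DMSO libraries.

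Ahsg, a glycoprotein of plasma that binds calcium phosphate, lay between 0.303 and 0.977 CPM in DMSO libraries, with a median of 0.614 CPM. The Adjudin libraries ran from 0.0649 CPM in Adjudin 4 through a median of 1.04 CPM to 122 CPM in Adjudin 3, 69.6 times the next library, Adjudin 1 (52.3 to 94.96). The groups overlapped here too once Adjudin 3 is set aside. On a scale of CPM per kilobase of transcript, Alb reached 130, Ahsg 55.6 and Afp 41.1 in Adjudin 3, so that the order there was Alb, Ahsg, Afp. In that library the count of Alb was 2.20 times that of Afp (2.12 to 2.29). In Adjudin 7 the same ratio was 0.133 (0.0341 to 0.378), and in DMSO 7 it was 2.29 (1.27 to 4.33) on 39 and 17 counts.

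**Figure D1:**
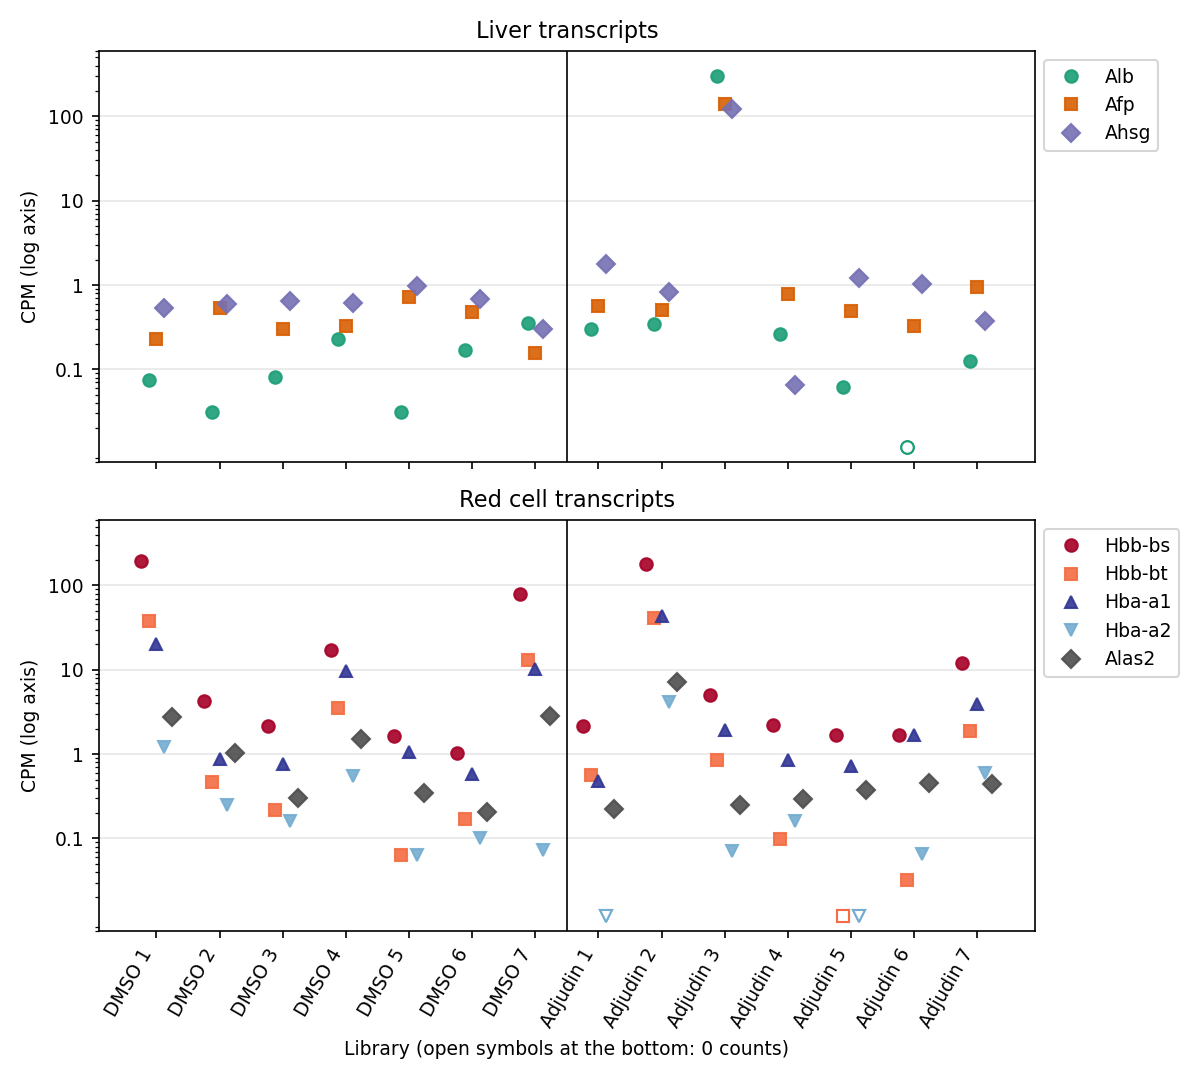
Level of each member in each of the 14 libraries, in CPM on a log axis, with liver transcripts above and red cell transcripts below. Each point is 1 library and 1 gene, and open symbols mark 0 counts. Alb, Afp and Ahsg exceed 100 CPM in Adjudin 3 alone, while Hbb-bs is above 10 CPM in DMSO 1, DMSO 4, DMSO 7, Adjudin 2 and Adjudin 7.

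Other liver genes were also high in Adjudin 3. Of 29 listed plasma protein genes, 29 were highest in Adjudin 3, against 15.5% of all 18732 genes tested, and of 15 liver enzyme genes 8 were. Apoa1, the protein of high-density lipoprotein, stood at 42.2 CPM in Adjudin 3 and at no more than 0.186 CPM in any other library. Fga, a fibrinogen chain, reached 16.2 CPM against 0.186 CPM at most elsewhere. Kng1, kininogen, had 414 counts in Adjudin 3 and at most 2 in any other library.

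The most abundant listed plasma protein genes, which islets are also known to express, were measured at high levels in further libraries. Rbp4, which carries retinol, was at 162 CPM in Adjudin 3 but also at 108 CPM in Adjudin 2 and 4.57 CPM in DMSO 5. Ttr, which carries thyroid hormone, was at 167 CPM in Adjudin 3 and 109 CPM in Adjudin 2, and Gc, the vitamin D binding protein, was at 47.9 CPM in Adjudin 3 and 2.90 to 26.9 CPM in the others. Among the enzymes, Arg1, the arginase of the urea cycle, was even over libraries at 18.2 to 34.7 CPM. All 10 beta cell genes were measured too, and 8 of them, all 3 alpha cell genes and all 7 pan-endocrine genes were also highest in Adjudin 3, so endocrine and liver genes were raised in the same library. The part of each in the other was not tested.

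Genes far higher in Adjudin 3 than in any other library, by at least 10 times and with at least 50 counts, numbered 27. This rule was set after the values had been seen. They summed to 830 CPM, and 13 of the 27 were members or listed liver genes. Among the rest were Cyp3a11 (21.3 CPM), a drug-metabolising cytochrome P450, Igfbp1 (21.2 CPM), a binding protein of insulin-like growth factors, and Apob (9.24 CPM), the protein of low-density lipoprotein. By the same rule 10 libraries had 0 such genes, Adjudin 6 had 1, DMSO 7 had 2 and Adjudin 5 had 7.

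Likeness to the liver transcripts was taken as Pearson's r of log2 CPM over the 14 libraries with the mean of the 3 members. Hpx, which binds free haem in plasma, came first with r = 0.94. Among the genes that followed were Apoa2 (r = 0.89), an apolipoprotein, Abca3 (0.87), a lipid transporter, F8a (0.86), Itih4 (0.85), H2-Q10 (0.84) and Serpina1a (0.84), an antitrypsin. The values of r rest on 1 library and are a description. Abca3, known from lung surfactant, was at 124 CPM in Adjudin 3 and 40.6 to 63.5 CPM in the other 13. F8a was at 22.8 CPM against 12.8 to 17.0 CPM.

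The red cell transcripts were high in other libraries, and in both treatments. Their summed level was 275 CPM in Adjudin 2, 255 CPM in DMSO 1 and 106 CPM in DMSO 7. DMSO 4 followed at 32.5 CPM and Adjudin 7 at 19.0 CPM, and the other 9 libraries lay between 2.08 and 8.11 CPM. Adjudin 2, DMSO 1 and DMSO 7 held 87.7% of the CPM summed over libraries, and 92.2% with DMSO 4. Adjudin 3, the library rich in liver transcripts, was at 8.11 CPM.

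Hbb-bs, an adult beta globin, ranged in DMSO libraries from 1.02 CPM in DMSO 6 through a median of 4.31 CPM to 193 CPM in DMSO 1, with 79.2 CPM in DMSO 7 and 17.1 CPM in DMSO 4. In Adjudin libraries it ranged from 1.68 CPM through a median of 2.21 CPM to 179 CPM in Adjudin 2, with 12.2 CPM in Adjudin 7. DMSO 1 and Adjudin 2 differed by 1.08 times (1.04 to 1.12), while DMSO 1 was 87.4 times the median of the other 13 libraries. The groups overlapped over nearly their whole ranges.

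Hbb-bt, the other adult beta globin, followed the same libraries. It was at 0.0630 to 38.0 CPM in DMSO libraries, with a median of 0.465 CPM and the highest value in DMSO 1. Adjudin libraries ran from 0 counts in Adjudin 5 (up to 0.0931 CPM) through a median of 0.560 CPM to 40.97 CPM in Adjudin 2. Counts of Hbb-bs were 5.07 times those of Hbb-bt in DMSO 1 (4.74 to 5.43), 4.36 times in Adjudin 2 (4.10 to 4.65), 6.04 times in DMSO 7 (5.71 to 6.39) and 4.81 times in DMSO 4 (3.91 to 5.96). Hbb-bs was the more abundant copy in all 4, but the intervals of DMSO 1, DMSO 7 and Adjudin 2 did not meet one another, so the ratio differed between these 3 beyond counting error.

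Hba-a1, an alpha globin, lay between 0.580 and 20.5 CPM in DMSO libraries, with a median of 1.07 CPM. In Adjudin libraries the lowest was 0.485 CPM, the median 1.68 CPM and the highest 43.7 CPM, in Adjudin 2. That library exceeded DMSO 1 by 2.13 times (1.93 to 2.36), whereas the beta globins of both libraries were nearly level. Hbb-bs over Hba-a1 was accordingly 9.42 in DMSO 1 (8.62 to 10.3) and 4.09 in Adjudin 2 (3.85 to 4.36), with 7.65 in DMSO 7 (7.19 to 8.15) and 1.75 in DMSO 4 (1.51 to 2.02).

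Hba-a2, the near-copy of Hba-a1, had 227 counts over all 14 libraries, against 3652 for Hba-a1. It was at 0.0630 to 1.21 CPM in DMSO libraries and at 0 to 4.19 CPM in Adjudin libraries, with 0 counts in Adjudin 1 and Adjudin 5 (up to 0.112 and 0.0931 CPM). Hba-a1 over Hba-a2 was 10.4 in Adjudin 2 (8.65 to 12.6), 16.9 in DMSO 1 (11.9 to 25.0) and 17.8 in DMSO 4 (11.0 to 31.0), but 141 in DMSO 7 (71.3 to 327), where Hba-a2 had 8 counts beside 1127 of Hba-a1. Since most windows of Hba-a2 occur in Hba-a1, this ratio rests on few distinguishing bases.

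Alas2 followed the same libraries at lower levels, with 2.98 CPM per kilobase in Adjudin 2 beside 233 CPM per kilobase for Hbb-bs. It was at 0.205 to 2.86 CPM in DMSO libraries, with a median of 1.02 CPM and the highest value in DMSO 7. In Adjudin libraries it ran from 0.224 CPM through a median of 0.372 CPM to 7.16 CPM in Adjudin 2, 2.51 times DMSO 7 (2.09 to 2.99). The ratio of Hbb-bs to Alas2 was 70.9 in DMSO 1 (56.2 to 90.8), 27.7 in DMSO 7 (24.8 to 31.1), 25.0 in Adjudin 2 (21.8 to 28.8) and 11.3 in DMSO 4 (8.34 to 15.5). The intervals of DMSO 1 and DMSO 4 met no other of these 4, while those of DMSO 7 and Adjudin 2 overlapped.

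**Figure D2:**
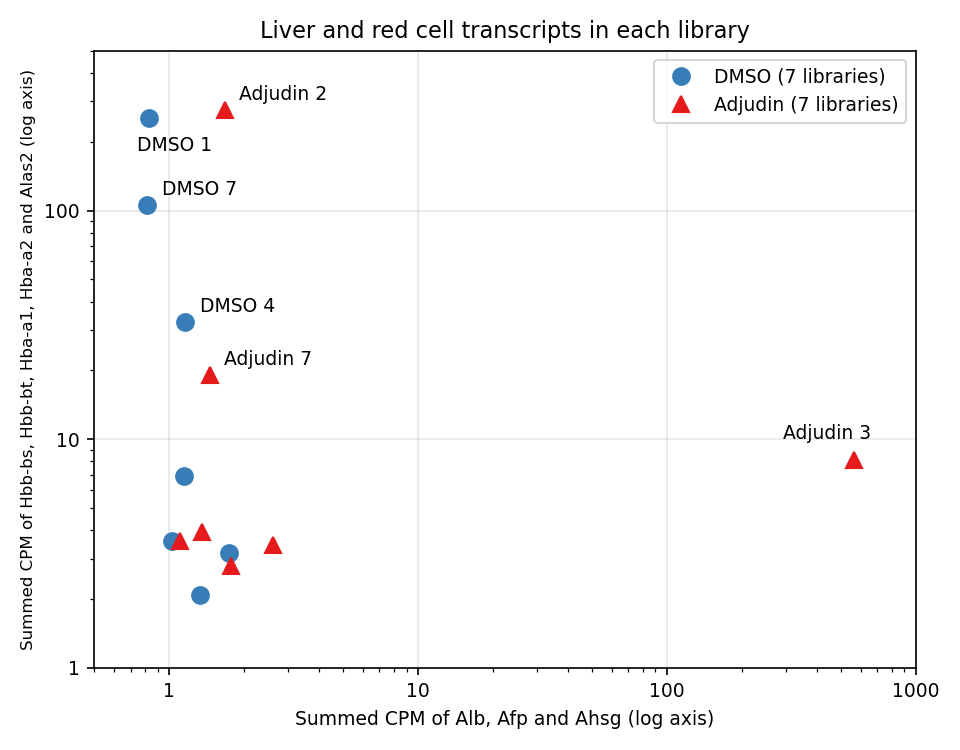
Summed CPM of the 3 liver transcripts (horizontal) against summed CPM of the 5 red cell transcripts (vertical), both on log axes, for 7 DMSO libraries (circles) and 7 Adjudin libraries (triangles). Adjudin 3 lies alone at 565 CPM of liver transcripts, and Adjudin 2, DMSO 1 and DMSO 7 lie above 100 CPM of red cell transcripts.

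Listed genes of the red cell membrane and of erythroid regulation followed the same 4 libraries. DMSO 1, DMSO 4, DMSO 7 and Adjudin 2 each exceeded all of the other 10 libraries for 4 of the 5 members, for 8 of 13 membrane genes and for 5 of 9 regulators, against 0.475% of all genes tested. The 4 libraries were picked for their globin levels, so these counts are a description. Slc4a1, the band 3 anion exchanger, was at 18.3 CPM in Adjudin 2, 4.23 CPM in DMSO 4, 2.62 CPM in DMSO 7 and 1.78 CPM in DMSO 1, and at no more than 0.316 CPM elsewhere. DMSO 4 held 4.04 counts of Hbb-bs per count of Slc4a1 (3.33 to 4.93), Adjudin 2 held 9.79 (8.95 to 10.7), DMSO 7 held 30.2 (26.9 to 34.2) and DMSO 1 held 109 (81.6 to 148).

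The most abundant genes of these lists followed these libraries less, and all of them are also used outside the red cell lineage. Epb41 (45.9 to 84.4 CPM), Add2 (5.56 to 25.6 CPM) and Tmod1 (4.60 to 22.0 CPM), all parts of the membrane skeleton, had their highest levels in Adjudin 3, DMSO 7 and Adjudin 4. Zfpm1, a partner of GATA factors, was at 38.9 to 83.1 CPM, and Tal1, a factor of blood and vessel cells, at 3.63 to 17.5 CPM, with their highest levels in DMSO 3 and DMSO 6. Epor, the erythropoietin receptor, was at 3.59 to 5.54 CPM in the 4 libraries and at 1.56 to 4.02 CPM in the others, so these overlapped. Klf1, the erythroid factor that drives adult beta globin, was at 1.78 to 3.34 CPM in the 4 libraries and at 0.253 to 0.673 CPM in the others. Gata1, which governs the erythroid programme, was at 1.52 to 3.10 CPM in the 4 and at 0.283 CPM at most in the rest.

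Embryonic and minor globins were near 0. Of the 7 other globin genes listed, 4 had any count, and their sum was 1.25 CPM in DMSO 1 and no more than 0.171 CPM elsewhere. Haem synthesis other than Alas2 was level, since the 10 listed genes summed to 306 to 367 CPM. Alas1, the form of the enzyme used outside the red cell lineage, was at 35.7 to 59.9 CPM, Fech, which inserts the iron, at 37.3 to 56.7 CPM and Cpox at 39.6 to 53.5 CPM. Of the genes that handle released haem and iron, Slc40a1 (ferroportin) was at 73.9 to 151 CPM, Hmox1 (haem oxygenase) at 55.3 to 122 CPM and Slc48a1 (a haem transporter) at 52.2 to 75.7 CPM.

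Genes of other blood cells stood beside the red cell transcripts. In the 4 libraries 8 of 9 neutrophil genes exceeded all of the other 10 libraries, and the list summed to 545 to 2658 CPM there against 11.1 to 277 CPM in the rest. S100a8, a calcium-binding protein of neutrophils, was at 1028 CPM in DMSO 1, 502 CPM in Adjudin 2, 485 CPM in DMSO 7 and 191 CPM in DMSO 4. Mpo, the myeloperoxidase of granulocyte precursors, was instead highest in DMSO 4 at 53.1 CPM and gave 3.10 counts per count of Hbb-bs there (2.81 to 3.43), against 0.0731 in DMSO 1 (0.0656 to 0.0812). Ppbp, a platelet chemokine, was at 47.4 CPM in DMSO 1, 17.1 CPM in Adjudin 2 and 7.22 CPM in DMSO 7, but at 0.194 CPM in DMSO 4. The blood-rich libraries thus held different mixtures of red cell, granulocyte and platelet transcripts. The part of the other blood cells in the globin values was not tested.

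Likeness to the 5 red cell transcripts, taken in the same way, led with Rhd (r = 0.93), a blood group antigen. It was followed by Gpr141 (0.90), F630028O10Rik (0.90), Ltb4r1 (0.90), the leukotriene B4 receptor, Ctsg (0.88), a granulocyte protease, Gm43843 (0.88), Nfe2 (0.88), a factor of red cells and platelets, and Klf1 (0.87). Ctsg was at 40.8 CPM in DMSO 7, 40.4 CPM in DMSO 1, 34.7 CPM in Adjudin 2 and 15.2 CPM in DMSO 4, and at no more than 2.05 CPM in the others. Genes at r of 0.8 or more numbered 50 for the red cell and 21 for the liver transcripts.

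**Figure D3:**
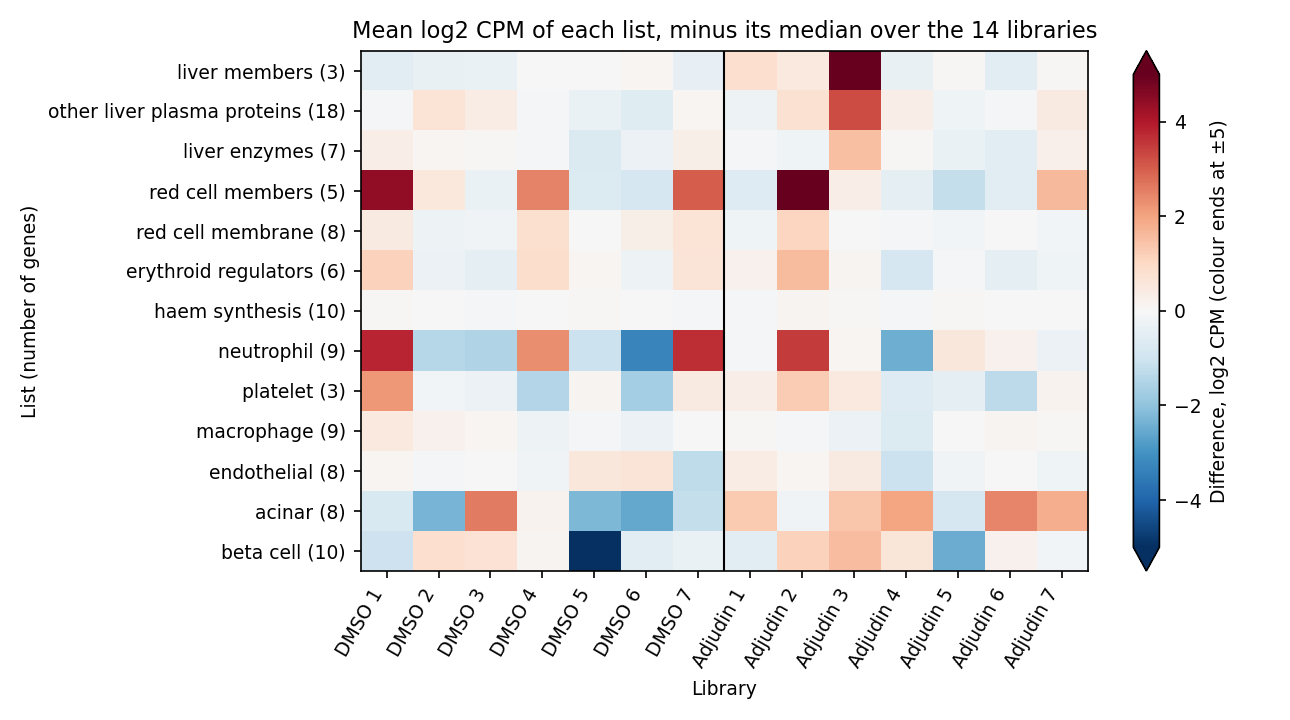
Mean log2 CPM of 13 gene lists (rows, with the number of genes) in the 14 libraries (columns), as the difference from each list's median over libraries. Red is above and blue below the median, and colours end at a difference of 5. Adjudin 3 stands out for the liver lists, DMSO 1, DMSO 4, DMSO 7 and Adjudin 2 for the red cell members and neutrophil genes, and haem synthesis is level.

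The spread of the members over libraries was far wider than that of a usual gene. The SD of log2 CPM over 14 libraries, with a prior count of 2, was 3.17 for Hbb-bt, 3.01 for Alb, 2.60 for Hbb-bs, 2.26 for Afp, 2.21 for Ahsg, 2.06 for Hba-a1, 1.75 for Hba-a2 and 1.52 for Alas2, against a median of 0.31 over the genes tested. Only 12 tested genes had a larger SD than Hbb-bt, 23 a larger one than Alb and 296 a larger one than Alas2. Treatment accounted for 0.715 to 15.8% of the sum of squares of a member, with a median of 2.60% over genes tested. Batch, the 7 replicate numbers, accounted for 30.7 to 57.9% against a median of 62.5%. Each member thus had a larger share of its variation within batches than the median gene. Unrelated values also give a share between batches or treatments, so these shares alone do not show an effect of either.

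Within pairs, the sign of the difference depended on the pair. The mean log2 CPM of the 5 red cell members differed between Adjudin and DMSO by 4.75 in pair 2, by −5.09 in pair 1, −2.92 in pair 4 and −1.41 in pair 7, and by 0.64, −0.52 and 0.27 in pairs 3, 5 and 6. Hbb-bs was higher with Adjudin in 4 of 7 pairs, Hba-a1 and Alas2 in 3 and Hbb-bt and Hba-a2 in 2. The mean of the 3 liver members was higher with Adjudin by 9.06 in pair 3 and differed by −0.65 to 1.40 in the other 6 pairs. Alb was higher with Adjudin in 5 of 7 pairs, Afp in 4 and Ahsg in 6. No member moved one way in all pairs.

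**Figure D4:**
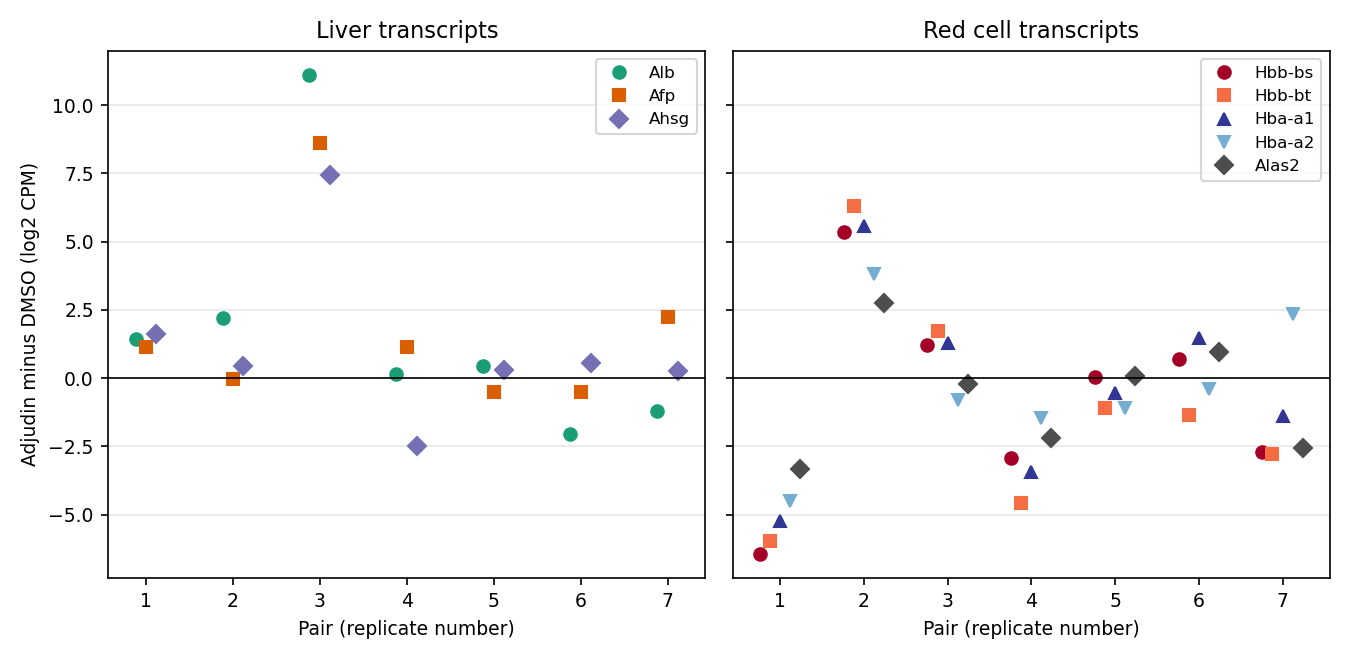
Difference in log2 CPM, Adjudin minus DMSO, within each of the 7 pairs (horizontal), for liver transcripts on the left and red cell transcripts on the right. Each symbol is 1 gene and the line marks no difference. Pair 3 holds the liver difference, up to 11.12 for Alb, and pairs 1, 2, 4 and 7 hold red cell differences of either sign.

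Adjudin was then set against DMSO across all genes, to see what these transcripts do to the comparison. After the filter on low counts 18732 genes were tested with edgeR's quasi-likelihood test, and 6 of the 8 members passed. Alb and Hba-a2 did not, as they were above the cutoff in 3 and 4 libraries. Of the 6 members 0 passed an adjusted p of 0.05, beside 0.00534% of all genes, and 2 had an unadjusted p under 0.05, beside 2.26% of all genes. Without the filter 3 of 8 had an unadjusted p under 0.05, beside 7.58% of 38028 genes, and 0 passed the adjusted threshold. DESeq2 called 0 members and 3 of all genes, with 0 members under an unadjusted 0.05 beside 2.17% of all genes. In limma-voom 0 members and 0 genes were called, and 0 members were under an unadjusted 0.05 beside 2.55% of genes. DESeq2 with the replicate number as a block called 0 members and 111 genes, with 1 member, Hbb-bt, under an unadjusted 0.05 beside 3.67% of genes. That share was 1395 genes, of which 853 rose and 542 fell with Adjudin. The paper gives the same totals for these islets, without naming a block. DESeq2 without the block had 827 such genes and the reported edgeR fit 424. The totals of the paper are thus those of the fit with the block. Over the 31 fits without a covariate 0 called a member, and the 4 fits with a covariate, described further on, also called 0. Since members were chosen on values of these libraries, the counts are a description.

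The fitted changes of liver transcripts followed Adjudin 3. The mean CPM of Afp was 0.391 ± 0.197 with DMSO and 20.3 ± 52.1 with Adjudin (± SD over 7 libraries each), and its log2 fold change was 5.69 ± 1.58 (SE), with an adjusted p of 1.00 from edgeR. For Ahsg these means were 0.621 ± 0.201 and 18.2 ± 45.9 CPM, with a log2 fold change of 4.85 ± 1.44. Alb, fitted without the filter, had means of 0.139 ± 0.121 and 43.7 ± 115 CPM, with a log2 fold change of 7.97 ± 2.42. Without Adjudin 3 the log2 fold changes were 0.66 ± 0.37 for Afp, 0.51 ± 0.49 for Ahsg and 0.30 ± 0.76 for Alb. With the replicate block they were 1.59 ± 1.16 for Afp, 1.07 ± 1.03 for Ahsg and, without the filter, 2.89 ± 2.52 for Alb. The median over the 2 tested liver members was 5.27, against −0.01 over all genes tested. Among the other listed plasma proteins 18 of 18 tested had a positive log2 fold change, 5 at an unadjusted p under 0.05 and 0 called, with a median of 0.98. Without Adjudin 3 that was 14 of 18, with a median of 0.17 and 0 under 0.05. Over all genes, 235 of 18732 were higher with Adjudin at such a p, and 193 of 18984 once Adjudin 3 was left out. The median over all genes was then −0.003. All 29 listed plasma protein genes were highest in Adjudin 3, and Rbp4, Ttr and Gc are also known from islets. The 18 genes are therefore not independent, and their counts are a description.

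DESeq2 treated the same counts differently. In its fit without the block it replaced outlying counts in 248 genes of 38028, and among the members it set the Adjudin 3 counts of Alb from 8605 to 4, of Afp from 3910 to 14 and of Ahsg from 3453 to 21. The log2 fold changes from that fit were 0.24 ± 0.74, 0.62 ± 0.39 and 0.47 ± 0.45. With the replicate block, 0 genes had a count replaced, and the values were 1.03 ± 1.22, 1.23 ± 0.86 and 0.76 ± 0.85. For Alb the fitted size ran from 0.24 in DESeq2 to 7.97 in edgeR, both without the block, and was 1.03 and 2.89 with it, so the tools differed also where no count was replaced.

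The fitted changes of red cell transcripts hung on Adjudin 2 and DMSO 1. The mean CPM of Hbb-bs was 42.6 ± 72.0 with DMSO and 29.1 ± 66.1 with Adjudin (± SD over 7 libraries each), and its log2 fold change was −0.56 ± 1.34. The log2 fold change was −0.33 ± 1.51 for Hbb-bt, 0.26 ± 1.10 for Hba-a1, −0.00 ± 0.80 for Alas2 and, without the filter, 1.14 ± 1.19 for Hba-a2. Without Adjudin 2 it was −3.39 ± 1.22 for Hbb-bs, −3.84 ± 1.47 for Hbb-bt, −2.01 ± 0.88 for Hba-a1 and −1.95 ± 0.61 for Alas2. The unadjusted edgeR p were 0.0152, 0.0209, 0.0393 and 0.00638, beside 1.88% of all genes under 0.05. The adjusted p was 1.00 in each case. Adjudin 2 was the highest Adjudin library for each of these genes, so leaving it out lowers the Adjudin mean in advance. These genes also share their libraries, so these p are a description. Without DMSO 1 the log2 fold change was 0.66 ± 1.34 for Hbb-bs and 1.03 ± 1.55 for Hbb-bt. The sign of the beta globin change thus turned with 1 library.

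Slc4a1, among the genes the study names, showed the same dependence. It did not pass the filter. Its log2 fold change without the filter was 1.02 ± 1.68, and −4.52 ± 1.54 without Adjudin 2. In DESeq2 with the replicate block, the fit with the paper's totals, the log2 fold change had the paper's direction. It was −6.85 ± 2.08 there, with an adjusted p of 0.108. In pairs 1, 4 and 7 the DMSO library had 47, 131 and 285 counts and the Adjudin library 0, 0 and 10, while in pair 2 the DMSO library had 1 and the Adjudin library 536.

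**Figure D5:**
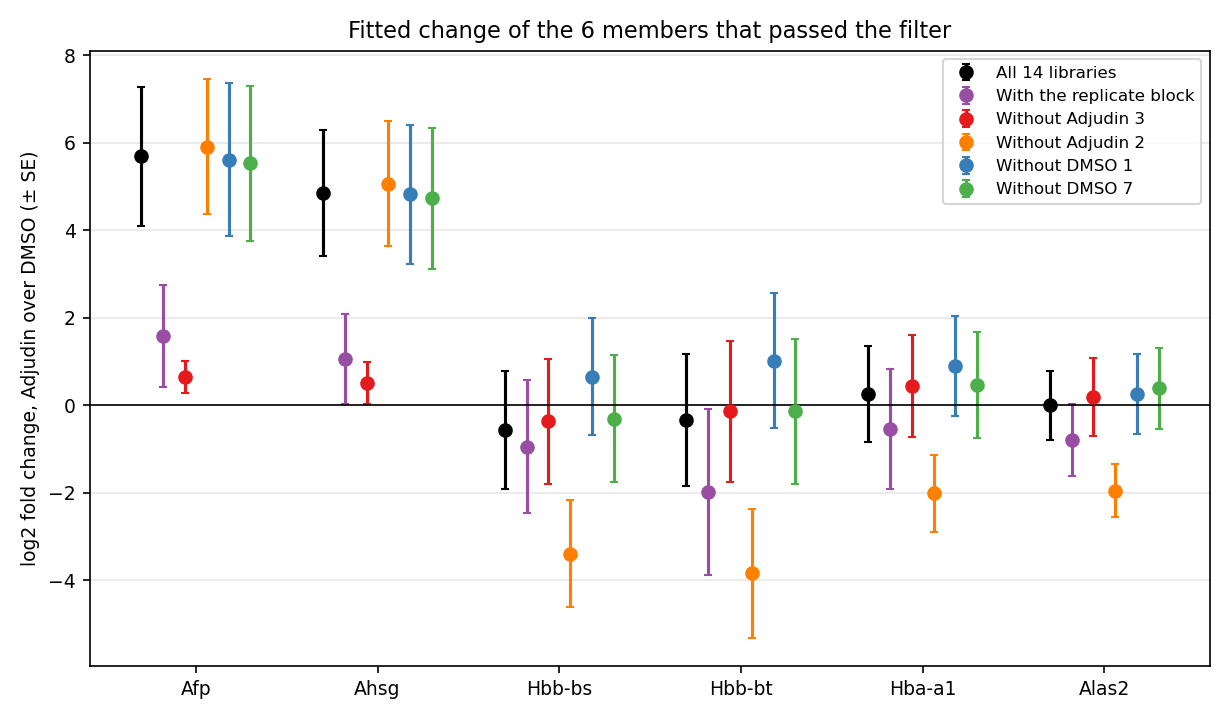
Log2 fold change, Adjudin over DMSO, of the 6 members that passed the filter, from edgeR with all 14 libraries, with the replicate block and without each of 4 libraries. Points are fitted values and bars are ± 1 SE, taken from the F statistic of each fit. Afp and Ahsg fall from 5.69 and 4.85 to 0.66 and 0.51 without Adjudin 3, and the 4 red cell genes drop to between −3.84 and −1.95 without Adjudin 2.

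For the comparison as a whole, the score of these transcripts was also entered as a covariate. With all libraries and no covariate edgeR called 1 gene, Cyp1a1, a xenobiotic-metabolising cytochrome P450, whose log2 fold change was 2.32 ± 0.31 (adjusted p = 0.0275). With the mean log2 CPM of the liver members as a covariate, 0 genes were called and Cyp1a1 stood at 2.16 ± 0.30 on the log2 scale (adjusted p = 0.0942), with 431 genes at an unadjusted p under 0.05 against 424. With the red cell score Cyp1a1 was called, at 2.35 ± 0.31 and an adjusted p of 0.0391. With both scores 0 genes were called, and Cyp1a1 was at 2.18 ± 0.30 with an adjusted p of 0.124. Leaving out 1 library at a time kept the call for DMSO 1, Adjudin 4 and Adjudin 5 and lost it for each of the other 11, Adjudin 2 and Adjudin 3 included. The size of the Cyp1a1 change thus moved little across these covariates, while its call did not hold in all of these edgeR fits. DESeq2 called Cyp1a1 both without the replicate block (adjusted p = 9.8e-12) and with it (adjusted p = 1.5e-13). Cyp1a1 was not called in limma-voom (adjusted p = 0.149) or in edgeR with the replicate block (adjusted p = 0.321).

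With both scores and the replicate block 8 genes were called, among them Prss1, Try4, Try5, Try10 and Sycn, products of acinar cells, which secrete digestive enzymes. The block alone gave 0 calls in edgeR, with 1055 genes at an unadjusted p under 0.05, and 111 in DESeq2. Among the 111 were 2 of the 29 other listed plasma protein genes and 1 of the 15 liver enzyme genes, all higher with Adjudin. The plasma protein genes were Rbp4 and Ttr, with log2 fold changes of 0.76 ± 0.14 and 0.82 ± 0.22. Both are also known to be expressed in islets, and 0 of the 8 members and 0 of the listed red cell genes were called.

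Scores of listed genes other than the members were correlated over the 14 libraries, in 6 relations. The permutations over the 14 libraries left the pairing out. Their p treat libraries of the same batch as independent and may be too small. Liver genes against red cell genes gave Pearson's r of −0.00 (permutation p = 0.991) and Spearman's rho of −0.05 (permutation p = 0.868), so these scores were not seen to rise together. The score of red cell genes held 14 genes and 0 globins. It includes Epb41, Add2, Tmod1, Zfpm1, Tal1 and Epor, which are also used outside the red cell lineage. The part of other cells in this red cell score was not tested, so its low correlations may not hold for red cell transcripts as such. The score of liver genes includes Rbp4, Ttr and Gc, which islets are also known to express. Outside Adjudin 3 the 29 listed plasma protein genes summed to 55.8 to 265 CPM, against 0.818 to 2.61 CPM for the 3 liver members. The part of islet transcripts in this score was not tested. Liver genes against beta cell genes gave r = 0.52 (permutation p = 0.0734, adjusted 0.441) and rho = 0.82 (permutation p = 0.00046, adjusted 0.00276). Without Adjudin 3 and DMSO 6, the libraries farthest from the median, r was 0.73. Within the 7 pair differences r was −0.01 (exact permutation p = 0.959) and rho 0.21, so no relation was seen within batches. The liver difference was 2.49 in pair 3 and −0.23 to 0.36 in the other pairs, and the beta cell difference was 3.49 in pair 5, which holds DMSO 5, and 0.19 to 0.81 in the other pairs, so the 7 differences rest largely on these 2 pairs and do not show that the relation is absent. Red cell genes against beta cell genes gave r = 0.06 (permutation p = 0.849) and rho = −0.14 (permutation p = 0.625). The other 3 relations, liver with acinar genes and red cell with endothelial and macrophage genes, had r of 0.30, −0.03 and 0.14, with adjusted permutation p of 0.9914 for each r and 0.7505 for each rho.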

How the data were processed

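Poly-A RNA of 14 islet libraries was sequenced as paired 150-base reads, aligned to mm10 (GRCm38) with HISAT2 2.0.5 and assigned to genes with featureCounts 1.5.0-p3, per the study's methods and the submitters' processing notes. The deposited values are raw counts per gene, made by the authors with no normalization. For the annotation release, strand and reads that fit several genes, the setting is not given in the sources used here. Gene starts and ends were the same in GENCODE for 8 of 8 members.

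CPM were taken from library totals. Adjudin was compared with DMSO by edgeR 4.0.16 (R 4.3.3; quasi-likelihood test, TMM scaling, Benjamini-Hochberg adjustment, threshold 0.05), all 14 libraries in 1 fit with no covariate. The filter (minimum count 10, equal to 0.324 CPM, in at least 7 libraries) left 18732 genes, which held 99.9% of counts. Log2 CPM used a prior count of 2. The SE of an edgeR log2 fold change is its absolute value divided by the square root of the F statistic, so it is approximate. The SE of DESeq2 is its own. DESeq2 1.42.0, limma-voom (limma 3.58.1), other scalings, no filter, the scores of the members as covariates, the replicate block and leaving out each library or pair were alternatives. The steps were tested on simulated counts. Over 91 library pairs the chi-square statistic per degree of freedom was at least 22.7, so none agreed within sampling noise. P-values measure the spread between pooled samples.

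The labels give the same batch to DMSO and Adjudin libraries of a number, and this is the source of the pairing. The reported edgeR fit leaves this pairing out, and only the fits with the replicate block use it. Deviations of same-numbered libraries from their group means had a correlation of −0.135 to 0.452 (mean 0.246), against a mean of −0.0410 for different numbers.

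The members and the gene lists were chosen with earlier results of these data known. The genes named are the 8 members, the 3 most abundant tested genes of each liver or red cell list and those past the threshold, the 8 genes most alike to each member group, Slc4a1 and Cyp1a1. Some genes that this rule names are not reported here. Further genes named with their levels were chosen after their values were seen. Of 221 listed symbols, 2 (Ahsp and Cblif) were not matched.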

Additional observations from a re-analysis of the deposited data

Results flagged for a closer look

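In a group of 7 libraries, a value stood apart when its gap to the nearest other library, as a share of the range of the group, exceeded Dixon's 95% critical value. Chance gives this in about 1 of 20 groups of normally distributed values. CPM of these genes are skewed, so that rate does not hold here. Of the 16 groups examined, 8 members in each treatment, 11 had such a library. They are the pattern for which these genes were chosen, and members of a kind share their libraries, so the 11 are not independent.

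Adjudin 3 stood apart from the other Adjudin libraries for Alb, at 305 CPM with a gap of 0.999 of the range, for Afp, at 138 CPM with 0.995, and for Ahsg, at 122 CPM with 0.986.

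Adjudin 2 stood apart for Hbb-bs, at 179 CPM with 0.941, for Hbb-bt, at 41 CPM with 0.954, for Hba-a1, at 43.7 CPM with 0.920, for Hba-a2, at 4.19 CPM with 0.857, and for Alas2, at 7.16 CPM with 0.967.

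DMSO 1 stood apart from the other DMSO libraries for Hbb-bs, at 193 CPM with 0.592, for Hbb-bt, at 38.0 CPM with 0.656, and for Hba-a2, at 1.21 CPM with 0.575.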

How the results depend on the processing

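The fit with no filter and the replicate block and the leave-outs of Alb and Hba-a2 were chosen after seeing the data, and the other alternatives with earlier results known. The count of genes past the threshold was 1 in the reported fit. It was 3 in DESeq2, 0 in limma-voom, 0 with the replicate block in edgeR and 111 with it in DESeq2. It was 0 with the liver score, 0 with both scores, 8 with both scores and the replicate block, 0 with no filter and the replicate block, and 0 to 1 when libraries or pairs were left out. The block changed no call of a member. The median log2 fold change of the liver transcripts, 5.27, was 0.47 in DESeq2, 1.56 in limma-voom, 1.33 with the replicate block, 1.03 with it in DESeq2 and 1.64 with no filter and the block, and 0.57 to 5.65 when libraries or pairs were left out. The gene sets of these liver medians differ. The DESeq2 values and the value with no filter and the block cover Alb, Afp and Ahsg, and the others cover Afp and Ahsg alone. The median log2 fold change of the red cell transcripts, −0.17, ran from −2.90 to 0.99 in the same leave-outs.

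Leaving out single libraries gave a log2 fold change of 0.30 to 8.63 for Alb and −1.14 to 1.89 for Hba-a2. Leaving out libraries or pairs gave 0.61 to 6.12 for Afp, 0.51 to 5.19 for Ahsg, −3.59 to 0.87 for Hbb-bs, −4.05 to 1.23 for Hbb-bt, −2.20 to 1.12 for Hba-a1 and −2.004 to 0.55 for Alas2. Hba-a1, at 0.26, turned to −0.57 in limma-voom, −0.54 with the replicate block, −0.46 with it in DESeq2 and −0.52 with no filter and the block. Hba-a2, at 1.14, turned to −0.78 with the block in DESeq2 and −0.18 with no filter and the block. Alas2, at −0.00, was 0.0036 with DESeq2 size factors, 0.0197 with library totals, 0.0092 with scaling that left out the members, 0.0222 with no filter and 0.0187 in DESeq2.

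Of the correlations, liver with red cell genes moved to r = 0.0773 without the 2 farthest libraries and 0.18 within pairs. Liver with beta cell genes gave r = 0.73 and, within pairs, r = −0.0104 and rho = 0.21. Red cell with beta cell genes gave r = −0.21 without 2 libraries and rho = 0.36 within pairs. Within pairs, liver with acinar genes gave r = −0.71 and rho = −0.29, red cell with endothelial genes r = 0.15, and red cell with macrophage genes r = −0.0625 and rho = 0.32. The causes were not tested. With a prior count of 0.5 the SD of log2 CPM rose from 1.75 to 2.28 for Hba-a2, above the 2.09 of Hba-a1, and from 3.17 to 3.56 for Hbb-bt. Depth limits Alb, Hba-a2 and Hbb-bt, which had 0 to 10 counts in many libraries.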

Other observations

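Adjudin 5 also held genes at least 10 times higher than in any other library. It had 7 such genes, among them Nkx2-1, a factor of lung and thyroid, at 4.16 CPM with 0 counts in every other library. Ccdc153 was at 3.79 CPM, Dnah5, a motor protein of cilia, at 3.51 CPM and Cyp2f2, a cytochrome P450 of airway cells, at 2.48 CPM. The liver and red cell transcripts were not high in that library, at 1.77 and 2.79 CPM in sum.

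Hp, the plasma protein that binds free haemoglobin, was high both where liver and where red cell transcripts were. It was at 18.7 CPM in Adjudin 3, 19.9 CPM in Adjudin 2, 18.0 CPM in DMSO 1, 17.7 CPM in DMSO 7 and 11.1 CPM in DMSO 4, and at 0.454 to 6.05 CPM in the other 9 libraries. It is made by hepatocytes and also held in granulocytes.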
